A study of Mus musculus with 18 samples.

Results

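PPARg binding in mouse liver was compared between 2 chromatin libraries from animals labelled as Ctcf knockouts in hepatocytes and 2 libraries from animals without Cre, out of 18 libraries in the whole series. KO 7 and KO 8 came from C57BL/6 mice of the genotype CTCF fl/fl Albcre+, and WT 2 and WT 4 from C57BL/6 mice of the genotype CTCF fl/fl Albcre-, so that both groups carried the floxed alleles. Cre was driven by the albumin promoter, which is active in hepatocytes, and whether other cells of the liver kept their Ctcf alleles was not measured. All animals were 8 weeks old. KO 7, KO 8 and WT 2 were tagmentation libraries from males on chow after an overnight fast. WT 4 was made with an adapter ligation kit, its labels give neither sex nor feeding state, and its growth text speaks of neural stem cells although tissue and source are liver. The labels do not say whether the numbered libraries came from separate animals, so the tests measure the spread between libraries. Each library was deposited as its own peak list on mm10. Peaks on chromosomes 1 to 19 and X with a −log10 q of at least 3 were kept in every list, and peaks that overlapped by at least 1 bp were merged into 33591 sites. The 9602 sites called in all 4 lists (28.6%) carry the comparison.

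PPARg is a nuclear receptor that binds DNA together with RXR, at direct repeats of the half-site AGGTCA with a single base between them. It drives lipid uptake and storage in fat cells, and in the liver it is best known for raising fat storage genes in steatosis. Its relative PPARa recognises the same repeats and drives fatty acid oxidation and ketone production in the fasted liver. CTCF, which the KO animals are labelled as lacking in hepatocytes, binds insulators and the boundaries of chromatin domains. Peak lists do not measure Ctcf itself, so the genotype of these 4 libraries rests on the labels.

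Promoter sequences are given for 6 genes whose windows held the summit of a site called in all 4 lists, as examples chosen after their values were seen. The first pair are the strongest that hold the repeat AGGNCANAGGNCA, searched on both strands and set in capitals, the second pair are the strongest of those higher in KO, and the last pair are those that were furthest below the shift in KO. The 250 bases before each gene's start are from RefSeq (GRCm38.p6), 5′ to 3′ on the gene's strand.
Fabp1 promoter, chr6:71199629-71199878, plus strand: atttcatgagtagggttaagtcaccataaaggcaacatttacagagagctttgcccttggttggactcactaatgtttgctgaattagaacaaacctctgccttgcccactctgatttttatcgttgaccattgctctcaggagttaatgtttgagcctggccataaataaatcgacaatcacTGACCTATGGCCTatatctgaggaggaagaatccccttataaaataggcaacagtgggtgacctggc
Asgr1 promoter, chr11:70053874-70054123, plus strand: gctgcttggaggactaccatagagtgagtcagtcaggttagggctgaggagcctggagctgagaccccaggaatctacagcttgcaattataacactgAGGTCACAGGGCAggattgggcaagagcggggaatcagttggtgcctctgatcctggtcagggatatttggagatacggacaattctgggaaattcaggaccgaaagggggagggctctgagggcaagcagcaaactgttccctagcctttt
Sult2a8 promoter, chr7:14438552-14438801, minus strand: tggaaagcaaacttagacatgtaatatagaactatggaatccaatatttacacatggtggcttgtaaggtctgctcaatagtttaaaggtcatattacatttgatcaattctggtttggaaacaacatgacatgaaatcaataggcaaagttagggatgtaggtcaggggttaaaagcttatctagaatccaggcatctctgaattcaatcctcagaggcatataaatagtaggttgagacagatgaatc
Mettl7b promoter, chr10:128960989-128961238, minus strand: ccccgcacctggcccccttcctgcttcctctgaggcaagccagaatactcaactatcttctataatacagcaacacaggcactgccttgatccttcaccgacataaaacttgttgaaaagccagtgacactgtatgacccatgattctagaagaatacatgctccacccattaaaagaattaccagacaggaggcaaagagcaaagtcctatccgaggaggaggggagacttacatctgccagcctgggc
Nadk promoter, chr4:155563565-155563814, plus strand: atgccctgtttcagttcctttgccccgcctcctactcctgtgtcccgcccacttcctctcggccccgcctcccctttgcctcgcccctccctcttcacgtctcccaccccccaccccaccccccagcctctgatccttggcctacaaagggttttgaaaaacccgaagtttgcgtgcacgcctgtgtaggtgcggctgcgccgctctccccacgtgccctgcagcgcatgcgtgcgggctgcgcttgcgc
Retreg1 promoter, chr15:25940452-25940701, plus strand: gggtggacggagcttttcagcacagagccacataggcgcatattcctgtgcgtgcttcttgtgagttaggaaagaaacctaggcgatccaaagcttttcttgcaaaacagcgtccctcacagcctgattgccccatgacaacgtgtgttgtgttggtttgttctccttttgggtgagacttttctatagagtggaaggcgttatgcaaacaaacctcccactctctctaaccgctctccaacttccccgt
Fabp1 encodes the liver fatty acid-binding protein, a textbook PPAR target, and its repeat at bases 184 to 196 reads on the opposite strand. Asgr1, a subunit of the asialoglycoprotein receptor of hepatocytes, holds its repeat at bases 99 to 111. Of the 214 windows of 300 bases (these bases and the 50 that follow the start) that held a shared summit, 3 (1.4%) held this repeat, against 75 of 21044 windows in the table (0.356%). The repeat was in 0 of the 11 windows whose site was higher in KO and in 0 of the 60 whose site was lower, and a missing match says only that these letters are not in the window. GC content had a median of 44.7% in the 11 higher windows, 55.3% in the 60 lower ones and 56.7% over all windows in the table. The Fabp1 site had a fold enrichment over background of 33.5 in KO 7 and 30.5 in KO 8, against 21.3 in WT 2 and 13.5 in WT 4. At Nadk, the NAD kinase gene, fold enrichment was 4.51 in KO 7 and 9.55 in KO 8, against 15.9 in both WT libraries.

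The KO lists were longer. KO 7 held 27431 peaks and KO 8 held 26345, against 15514 in WT 2 and 14567 in WT 4, a ratio of the means of 1.79. They covered 20.8 and 21.1 Mb in KO against 8.99 and 6.46 Mb in WT, and the median peak was 569 and 596 bp wide in KO against 471 and 379 bp in WT. Median fold enrichment over all peaks of a list did not separate the groups, with 7.01 and 6.74 in KO and 7.44 and 6.47 in WT. With 2 libraries against 2 the exact permutation test cannot go below a two-sided p of 0.33, which it gave for the number, covered length and width of the peaks. Read depth is unknown for all 4 libraries, so its part in the length of the lists was not tested. Most WT peaks were found again in KO: 88.1% of the WT 2 peaks overlapped a KO 7 peak and 71.0% a WT 4 peak, whereas 47.3% of the KO 7 peaks overlapped a WT 2 peak and 75.8% a KO 8 peak. Sites called in both KO lists and neither WT list numbered 6450, against 281 in both WT lists and neither KO list.

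At the 9602 shared sites PPARg enrichment was higher in KO. The median fold enrichment was 14.0 in KO 7 and 13.2 in KO 8, against 9.03 in WT 2 and 7.65 in WT 4, so that both KO libraries lay above both WT libraries. The median site differed by 0.68 on the log2 scale (KO mean minus WT mean), which is 1.60-fold, and 85.7% of the sites were higher in KO. Against WT 2 alone, the library of the same kit, the median difference was 0.55 on the log2 scale. The difference was not even along the range of binding: it was 0.07 in the weakest and 1.42 in the strongest of 10 equal groups of sites ordered by mean log2 fold enrichment. In the strongest group the median fold enrichment was 53.1 and 48.4 in KO against 23.9 and 17.6 in WT. The ordering mean is taken over the same 4 lists, so a site's own difference enters its place in the order. Sites were also broader in KO, with medians of 1133 and 1184 bp against 619 and 483 bp in WT, a median log2 difference in width of 1.01. The exact permutation p of the 4 library medians was 0.33 for both measures, the smallest that 2 against 2 allows. Across the shared sites log2 fold enrichment correlated at 0.92 between KO 7 and KO 8, at 0.82 between WT 2 and WT 4 and at 0.66 to 0.70 between a KO and a WT library, so that WT 2 was closer to WT 4 than to the KO libraries made with its own kit. These values describe sites within libraries and are not replicates. The part of the kit was not tested, because WT 4 is the only library of its kit. In bulk liver, binding in a different share of the cells and stronger or weaker binding per cell cannot be told apart.

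**Figure D1:**
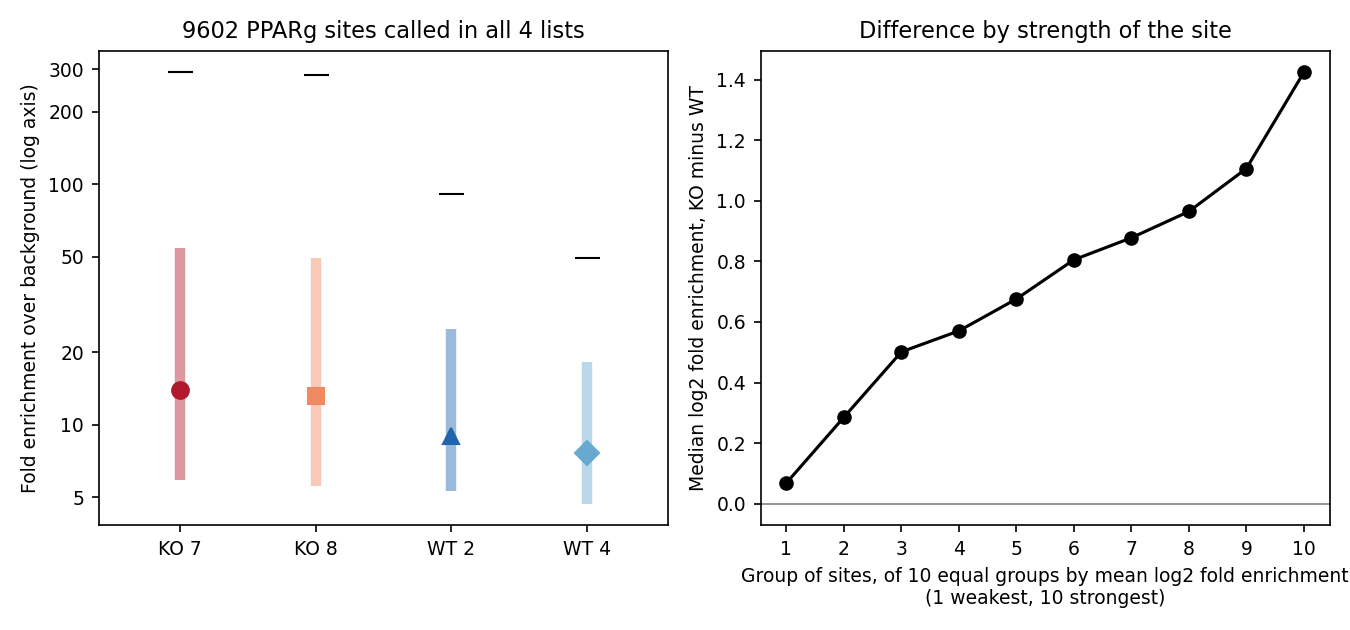
The left panel plots fold enrichment over background at the 9602 PPARg sites called in all 4 lists, on a log axis, with the median as a symbol, the 5th to 95th percentile as a bar and the highest site as a dash for each library. The right panel plots the median log2 difference, KO minus WT, for the sites split into 10 equal groups by their mean log2 fold enrichment, and it climbs along the range to 1.42 in the strongest group. The groups are ordered by the same values that give the difference.

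Sites that moved beyond this list-wide shift were found by centring each list on its median over the shared sites and fitting limma to the log2 fold enrichment, with a Benjamini-Hochberg adjusted p under 0.05. limma draws the spread of each site or gene towards that of others of similar mean. Its standard errors and small p-values therefore do not rest on a site's own libraries alone. Of the 9602 sites, 1534 were higher in KO beyond the shift (16.0%) and 1463 were lower (15.2%). Over all shared sites the median fold enrichments of KO 7, KO 8, WT 2 and WT 4 were 14.0, 13.2, 9.03 and 7.65. The higher sites were above these in every list, and most so in KO, with medians of 35.6 and 33.2 in KO against 11.2 and 9.41 in WT. The lower sites were weak in KO, with medians of 7.01 and 6.74. In WT they were near the medians of all shared sites, with 9.56 and 7.55. At 1346 of the lower sites the KO mean was below the WT mean as deposited. When the sites were split by strength into 3 equal groups, 1167 of the higher sites fell in the strongest group and 943 of the lower sites in the weakest. Strength is the mean over the lists of both genotypes, so a site's own rise or fall in KO enters the split. Quantile normalization, which gives every list the same distribution and so takes out a shift that depends on strength, left 630 sites higher (6.56%) and 595 lower (6.20%), of which 598 and 454 were called in the same direction by both fits. Without WT 4, 1400 of the 11838 sites called in the other 3 lists were higher (11.8%) and 1085 lower (9.17%).

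Ranks within each list gave no site past the test. Each shared site was ranked by its −log10 q among the shared sites of its list, as a percentile, and limma called 0 sites in either direction (0%), with 1211 higher and 1287 lower at an unadjusted p under 0.05 and a smallest adjusted p of 0.071. Ranking by fold enrichment also gave 0. The site with the largest mean fold enrichment lies within Slc22a23, a transporter-family gene, on chromosome 13 (34287044 to 34292887), with 291 and 283 in KO against 58.4 and 38.8 in WT. Close behind came a site 16 bp from Polr3gl, a subunit gene of RNA polymerase III, with 252 and 225 in KO against 87.1 and 48.2 in WT. A site 50983 bp from Abcd3, the gene of a peroxisomal fatty acid transporter, had 237 and 248 in KO against 75.4 and 42.4 in WT. In these 3 sites, chosen for their mean over all lists, every KO value exceeded every WT value, as it did at 6493 of all 9602 shared sites (67.6%). The largest climb in rank was at a site inside Slc35a3, at the 95.5th and 95.3rd percentile in KO against the 1.94th and 7.69th in WT. The site inside Adnp had the largest drop, at the 3.46th and 8.84th percentile in KO against the 93.0th and 93.5th in WT. Mup13 and Mup8, which stand nearest to 2 more of the 5 largest climbs, belong to a family of near-identical major urinary protein genes, where the placing of reads is uncertain. Mdfic and Nifk are nearest to the other climbs, and Pdgfra, Cdkn1a, Inhbb and Mafg to the other drops, each at a rank adjusted p of 0.071.

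Width beyond its own shift told few sites apart. Of the shared sites 58 were wider in KO beyond the median shift in width (0.604%) and 90 were narrower (0.937%), and 14 of the wider sites were also higher in fold enrichment and 46 of the narrower ones also lower. The count moved with the library left out: without WT 4 it was 521 wider and 522 narrower, without WT 2 612 and 555, and without KO 7 or KO 8 it was 0 wider, with 7 and 4 narrower. The site inside Pdgfra covered 397 and 655 bp in KO against 1335 and 992 bp in WT, a log2 difference of -2.26 beyond the shift in width (limma adjusted p = 0.025).

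To name genes, each of the 21627 protein-coding genes was given its strongest shared site within 10 kb of its span, which 5073 genes have, at 3942 different sites. Of these genes 1191 were higher in KO beyond the shift (23.5%) and 528 lower (10.4%), and the median gene was 0.14 above the shift on the log2 scale. Over all shared sites the shares were 16.0% and 15.2%. A gene's strongest site has the largest mean over the same 4 lists. A site's own rise or fall in KO therefore enters the choice, also in the shares over all genes below. After quantile normalization 483 genes were higher (9.52%) and 447 lower (8.81%), with 477 and 283 of the genes above among them. Without WT 4, 1133 of 5775 genes were higher (19.6%) and 352 lower (6.10%), with 993 and 278 of the genes above among them.

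The 10 largest rises beyond the shift were at Slc35a3, Ago3, Ddhd2, Prl7d1, Mup-ps16, Atp2a2, Rlf, Marchf8, Shb and Olfr1160. Both KO libraries lay above both WT libraries at 3846 of all 5073 genes and at 1191 of the 1191 higher genes, these 10 included. The 10 sites had fold enrichments of 44.1 to 205 in KO against 4.69 to 21.8 in WT. At Slc35a3, a nucleotide sugar transporter gene of the Golgi, a site inside the gene on chromosome 3 (116691541 to 116693927) had 59.1 and 52.8 in KO against 4.78 and 4.69 in WT. It was 2.85 ± 0.27 (SE) above the shift on the log2 scale, which is 7.22-fold (limma adjusted p = 4.75e-20). Both WT values lay below the 5th percentile of the shared sites of their list (5.31 in WT 2 and 4.71 in WT 4). Deposited fold enrichment moves in steps of 0.531 and 0.588 in these lists, so the size of this ratio is not well fixed. The gene holds a second shared site, and without KO 7, without KO 8 or with lists of equal length that other site was the strongest and its difference lay between -0.11 and 0.04. Ago3, which encodes an Argonaute protein of RNA silencing, had 171 and 167 in KO against 17.5 and 13.2 in WT, 2.77 ± 0.25 above the shift (adjusted p = 1.65e-20). Ddhd2, which encodes a triglyceride and phospholipid lipase, had 205 and 178 in KO against 21.8 and 15.3 in WT (2.68 ± 0.26). The calcium pump gene Atp2a2 had 174 and 163.1 in KO against 19.3 and 18.8 in WT (2.44 ± 0.26). Prl7d1 and Olfr1160, known as a placental prolactin-family gene and an olfactory receptor gene, are genes without a textbook role in hepatocytes, and their sites had 96.2 and 91.5 in KO against 8.50 and 10.0 in WT, and 83.7 and 79.2 in KO against 9.56 and 11.6 in WT. The 10 sites remained higher after quantile normalization, all 10 past the test, with 2.85 at Slc35a3 and 1.93 at Ago3, and 1 of the 10 had an H3K4me3 peak, the mark of active starts, in both the KO and the WT library of that mark, against 277 of the 1191 higher genes and 1615 of all 5073.

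The 10 largest falls were at Pdgfra, Adnp, Cdkn1a, Nadk, Pde8a, Pnrc1, Pet117, Rnf4, Nr2c2 and Tmem98. Both KO libraries lay below both WT libraries as deposited at 3.21% of all 5073 genes and 30.9% of the 528 lower genes, these 10 included. The 10 sites had fold enrichments of 4.49 to 11.7 in KO against 7.65 to 26.6 in WT. The 5th percentile of the shared sites was 5.92 in KO 7 and 5.55 in KO 8, so the lowest KO values lie at the low end, where ratios are not well fixed. Pdgfra, the receptor gene for platelet-derived growth factor known from stellate cells in the liver, had 5.01 and 7.30 in KO against 26.6 and 18.8 in WT at chromosome 5, 75155979 to 75157321. The difference beyond the shift was -2.60 ± 0.29 on the log2 scale (adjusted p = 2.63e-14). At Adnp, which encodes a chromatin-bound zinc finger homeobox protein, fold enrichment was 5.51 and 6.18 in KO against 22.8 and 15.6 in WT (-2.40 ± 0.30, adjusted p = 3.44e-12). Cdkn1a, the gene of the cell cycle inhibitor p21, had 9.02 and 5.61 in KO against 22.3 and 15.3 in WT (-2.09 ± 0.29, adjusted p = 7.24e-10). An H3K4me3 peak in both libraries of that mark lay at 8 of these 10 sites, against 232 of the 528 lower genes and 1615 of all 5073. A CTCF peak in both WT libraries of CTCF lay at the Pdgfra, Adnp and Cdkn1a sites, against 6.32% of all shared sites. The sites nearest Inhbb and Mafg, also named for their drop in rank, had none. The part of CTCF in these falls was not tested. Pnrc1 and Nr2c2 encode a nuclear receptor coregulator and the orphan receptor TR4, and their sites had 7.01 and 9.44 in KO against 21.3 and 14.1 in WT, and 5.01 and 4.49 in KO against 10.6 and 7.65 in WT. All 10 also passed after quantile normalization. For Nadk and Pde8a another site was the strongest without WT 4, at differences of 0.12 and 1.19, and likewise without WT 2, at -0.11 and 0.021, as for Nadk with lists of equal length (-0.069).

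**Figure D2:**
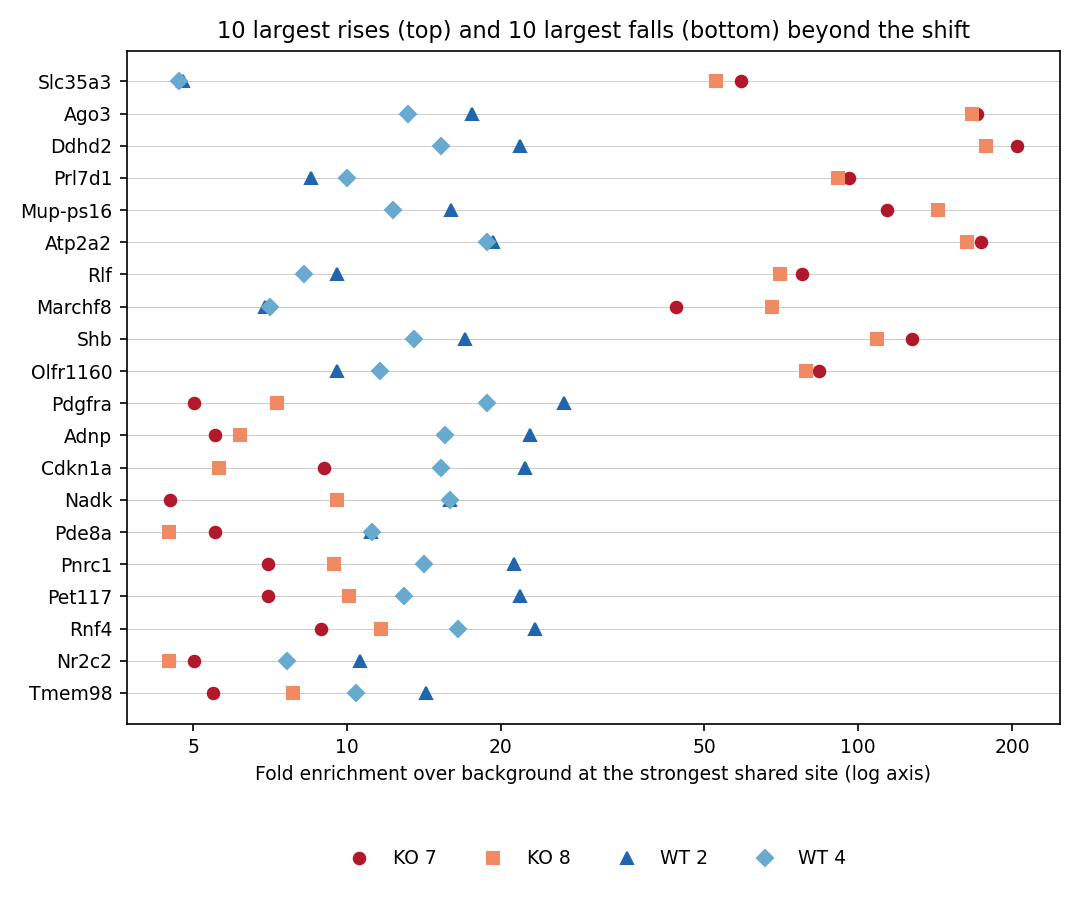
Fold enrichment over background, on a log axis, at the strongest shared PPARg site of the 10 genes with the largest rise (top) and the 10 with the largest fall (bottom) beyond the list-wide shift, with 1 symbol per library. The KO symbols lie at 44.1 to 205 and the WT symbols at 4.69 to 21.8 for the rises, and for the falls the KO symbols lie at 4.49 to 11.7 and the WT symbols at 7.65 to 26.6.

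Genes of fatty acid oxidation and ketogenesis carried some of the strongest PPARg binding, and most of them were higher in KO beyond the shift. Of the 32 genes listed, 31 had a shared site (30 different sites). Beyond the shift 19 of the 31 were higher (61.3%, against 23.5% of all genes) and 3 lower (9.68%, against 10.4%). The median was 0.79 above the shift on the log2 scale against 0.14 over all genes. Hadha and Hadhb, which encode the mitochondrial trifunctional protein and share a site, had 215 and 226 in KO against 40.4 and 26.5 in WT, 2.05 ± 0.28 above the shift (adjusted p = 1.07e-10). Cyp4a10, a fatty acid omega-hydroxylase, had 239 and 227 in KO against 60.0 and 40.01 in WT (1.54 ± 0.29). Ehhadh, the bifunctional enzyme of peroxisomal oxidation, had 201 and 171 in KO against 69.6 and 42.4 in WT (1.06 ± 0.29). Also past the test were the enzymes of unsaturated and mitochondrial chains Decr1, Decr2, Eci1, Eci2 and Etfdh, the peroxisomal Abcd3 and Acaa1a, the acyl-CoA thioesterases Acot1 and Acot2, the hydroxylase Cyp4a14, the carnitine carrier Slc25a20, the kinase Pdk4 and the receptor Ppara itself, at 0.67 to 1.66 above the shift.

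The genes of the list that lay below the shift include a control point of the pathway. Cpt1a, which encodes the entry step of fatty acids into mitochondria, had 26.6 and 24.1 in KO against 24.4 and 22.4 in WT, so that the groups overlap, and its difference from the shift was -0.59 ± 0.25 (adjusted p = 0.0491). Acadl, a long-chain acyl-CoA dehydrogenase, had 19.04 and 18.5 in KO against 19.1 and 17.6 in WT (-0.68 ± 0.26, adjusted p = 0.0303), where the groups overlap as well. Fgf21, the fasting hormone, had 5.51 and 5.61 in KO against 9.56 and 5.88 in WT (-1.14 ± 0.28, adjusted p = 0.000599). After quantile normalization 3 genes of the list were higher (9.68%, against 9.52% of all genes) and 6 lower (19.4%, against 8.81%). The median was then 0.04, and Ehhadh and Acaa1a lay at -0.32 and -0.04. Hadha and Hadhb (0.88) and Acot2 (0.68) were the 3 that remained. H3K27ac, a mark of active enhancers and promoters, covered 18 of the 19 higher sites in all 6 libraries of that mark, against 4495 of all 5073 genes, and its mean fold enrichment was higher in KO at 6 of the 19, against 1180 of all 5073.

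**Figure D3:**
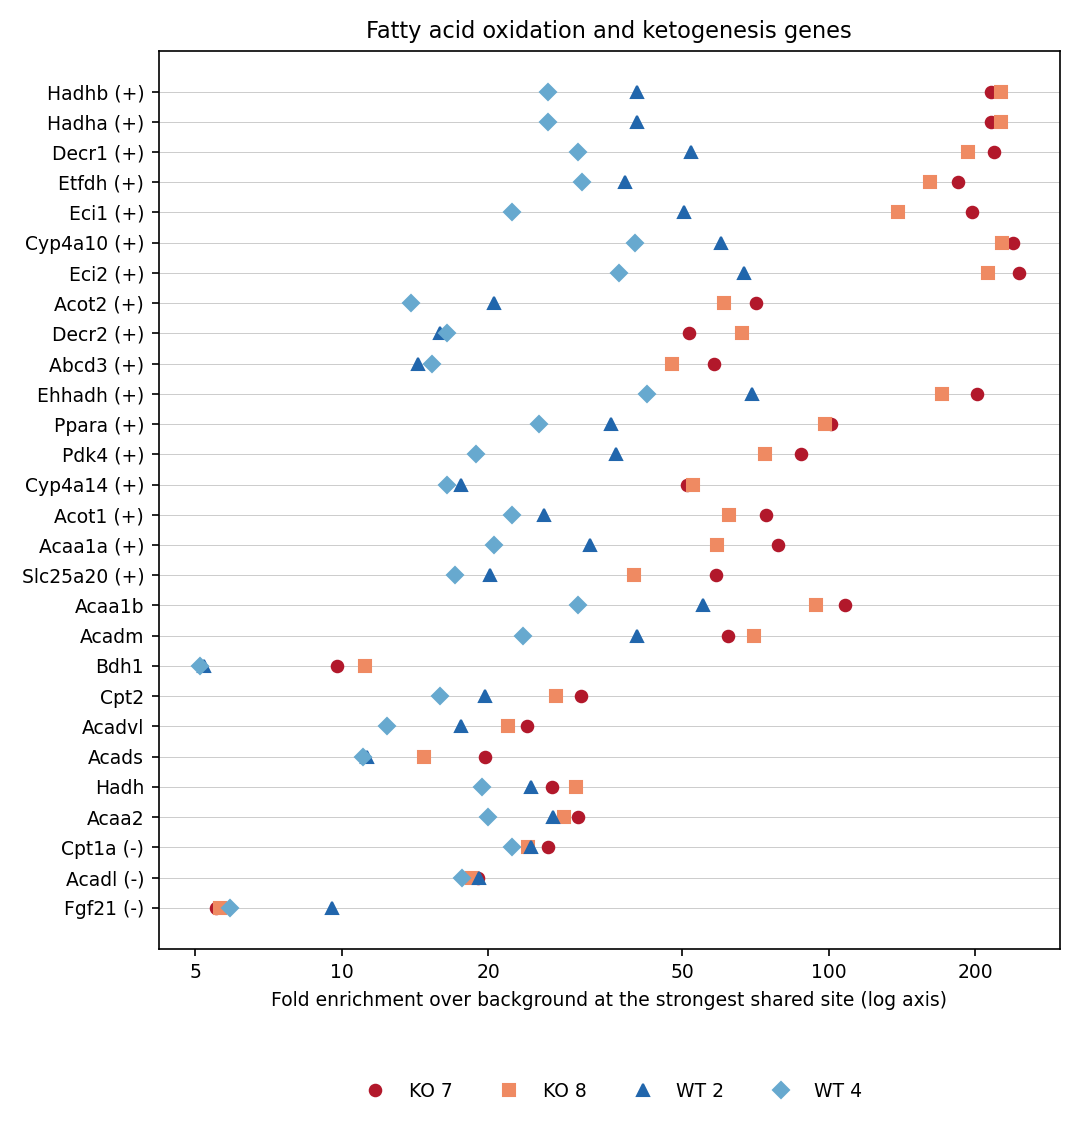
Fold enrichment over background, on a log axis, at the strongest shared PPARg site of 28 fatty acid oxidation and ketogenesis genes, ordered by the difference beyond the shift, with 1 symbol per library; (+) and (-) mark the 17 of these past the test upward and the 3 past it downward. KO and WT symbols stand wide apart at the strong sites of the top rows and run together at Cpt1a and Acadl.

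Lipid storage and uptake genes, the classical PPARg targets, were higher beyond the shift or did not pass the test. With 25 of 32 genes at a shared site, 10 were higher beyond the shift and 0 lower, against 23.5% and 10.4% of all genes, at a median of 0.57. Fabp4, the fatty acid-binding protein of fat cells and macrophages and a hallmark PPARg target, had 71.1 and 45.5 in KO against 12.2 and 5.88 in WT, 2.04 ± 0.25 above the shift (adjusted p = 2.86e-12), and it stayed higher after quantile normalization (1.72, adjusted p = 0.002). The fatty acid transporter Slc27a2 had 146 and 133 in KO against 43.6 and 35.3 in WT (1.12 ± 0.27). Cd36, the scavenger receptor that takes up fatty acids, had 45.1 and 39.3 in KO against 20.2 and 12.4 in WT (0.71 ± 0.25). The lipase regulators Angptl4, Hilpda and G0s2, the lipase Pnpla2, the acyl-CoA synthetases Acsl1 and Acsl5 and Fitm1, which shapes lipid droplets and whose site lies nearest Dcaf11, also passed, at 0.65 to 1.41. Plin2, the main droplet coat protein of hepatocytes, had 47.6 and 38.2 in KO against 20.2 and 15.3 in WT and did not pass (0.57 ± 0.24, adjusted p = 0.057). Fabp1, shown above, was at 0.21 ± 0.25 (adjusted p = 0.55). After quantile normalization 3 were higher and 2 lower, against 9.52% and 8.81% of all genes, with Slc27a2, Acsl1, Angptl4 and G0s2 at -0.11, -0.03, -0.34 and -0.40.

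Among 22 fatty acid and triglyceride synthesis genes with a shared site, 7 were higher (31.8%) and 3 lower (13.6%), against 23.5% and 10.4% of all genes, at a median of 0.37. After quantile normalization 2 were higher and 2 lower (9.09% each), against 9.52% and 8.81% of all genes. Lpin2, a phosphatidate phosphatase of triglyceride synthesis, had 37.6 and 47.2 in KO against 12.2 and 8.44 in WT (1.34 ± 0.25). Mttp, which loads lipid onto lipoproteins, had 30.6 and 27.5 in KO against 9.03 and 7.65 in WT (1.09 ± 0.27). Lpin2 and Mttp passed after quantile normalization as well. Elovl6, Elovl3, Acaca, Acacb and Gpam, the elongases, carboxylases and acyltransferase, were the other genes past the test, at 0.74 to 0.94. Lower were Mlxipl, which encodes the glucose-sensing factor ChREBP, with 11.3 and 14.6 in KO against 18.8 and 17.1 in WT (-1.19 ± 0.27, adjusted p = 0.000177), and Acly and Dgat1 at -0.76 and -0.91. At Acly and Dgat1 the KO and WT values overlap as deposited.

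Of the receptors and their partners, Ppara had the strongest site, with 101 and 98.3 in KO against 35.7 and 25.5 in WT (1.02 ± 0.25). Pparg itself had 17.5 and 25.3 in KO against 12.2 and 11.8 in WT, which is 0.10 ± 0.27 above the shift and did not pass (adjusted p = 0.80). The obligate partner Rxra had 8.52 and 5.79 in KO against 4.78 and 7.62 in WT, where the groups overlap. Over the 14 genes with a shared site 2 were higher (14.3%) and 3 lower (21.4%), against 23.5% and 10.4% of all genes, at a median of -0.02. The corepressor gene Ncor1 was higher (19.04 and 21.9 in KO against 8.50 and 7.06 in WT, 0.69 ± 0.29, adjusted p = 0.0498). Tbl1xr1, which encodes a subunit of corepressor complexes, and the coactivator Ncoa2 were lower by -0.76 and -0.84. Both KO values lay below both WT values as deposited at 0 of the 3 lower genes, against 30.9% of all 528 lower genes. After quantile normalization 0 of the 14 were higher and 1 was lower (7.14%), against 9.52% and 8.81% of all genes. In that fit Ppara lay at 0.10 and Ncor1 at 0.56 (limma adjusted p = 0.70 and 0.18).

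Hepatocyte transcription factor genes had a median of -0.17, with 2 of 18 higher (11.1%) and 3 lower (16.7%), against 23.5% and 10.4% of all genes. Hnf4a had 33.6 and 26.4 in KO against 16.5 and 17.6 in WT, and Cebpa 19.95 and 15.3 in KO against 11.3 and 12.4 in WT, and neither passed the test beyond the shift (0.10 ± 0.25 and -0.14 ± 0.28, adjusted p = 0.80 and 0.73). Rora and Nr1i3, the xenobiotic receptor CAR, whose site lies nearest Apoa2, were higher by 0.65 and 0.79. Cebpb, a stress and fasting factor, had 35.9 and 41.0 in KO against 41.2 and 31.8 in WT and lay -0.62 ± 0.24 from the shift, and Nr1h3, the oxysterol receptor LXRa, -0.73 ± 0.30. Both KO values lay below both WT values as deposited at 0 of the 3 lower genes. After quantile normalization 0 of the 18 were higher and 4 lower (22.2%), against 9.52% and 8.81% of all genes. The median was then -0.56 against -0.01 over all genes. At 7 of the 18 sites every KO value of H3K27ac lay below every WT value, against 952 of the 5073 genes in all, and the part of this in the PPARg values was not tested.

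Bile acid and cholesterol genes had 4 of 19 higher (21.1%) and 2 lower (10.5%), which is near the 23.5% and 10.4% of all genes, at a median of 0.27. After quantile normalization 1 was higher (5.26%) and 4 were lower (21.1%), against 9.52% and 8.81% of all genes. Baat, which conjugates bile acids, had 44.6 and 43.2 in KO against 11.7 and 10.0 in WT (1.31 ± 0.25), and stayed higher after quantile normalization. Hmgcs1 of cholesterol synthesis, with a site nearest Nim1k, and the lipid exporters Abca1 and Abcb4 were higher by 0.97, 0.97 and 0.86. Cyp7a1, whose enzyme starts the conversion of cholesterol to bile acids, had 7.51 and 11.2 in KO against 13.3 and 11.2 in WT and was lower (-1.12 ± 0.30, adjusted p = 0.00147). The HDL receptor Scarb1 was lower by -0.85, but without WT 4 another of its sites was the strongest and its difference was 0.36. KO and WT values overlap as deposited at both Cyp7a1 and Scarb1. Of 18 xenobiotic genes 4 were higher (22.2%) and 1 lower (5.56%), near the 23.5% and below the 10.4% of all genes, at a median of 0.27 as well. Cyp2e1, the ethanol-oxidising cytochrome, had 62.7 and 44.9 in KO against 13.8 and 10.6 in WT (1.42 ± 0.25). Cyp1a2 had 28.1 and 16.8 in KO against 5.01 and 7.06 in WT (1.16 ± 0.30). Fmo5 (1.80, at a site nearest Chd1l) and the cytochrome reductase gene Por (0.70) completed the higher ones, and Gstp1 was lower by -1.02. The KO and WT values of Gstp1 overlap as deposited. After quantile normalization 3 of the 18 xenobiotic genes were higher (16.7%) and 2 lower (11.1%), against 9.52% and 8.81% of all genes.

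Glucose and glycogen genes moved in both directions. Of 17 with a shared site 6 were higher (35.3%) and 3 lower (17.6%), against 23.5% and 10.4% of all genes, at a median of 0.12. After quantile normalization 2 were higher (11.8%) and 5 lower (29.4%), against 9.52% and 8.81%. Gys2, liver glycogen synthase, had 83.2 and 89.3 in KO against 16.5 and 11.2 in WT, 1.96 ± 0.24 above the shift (adjusted p = 3.44e-12). The growth factor gene Igf1 had 75.6 and 57.8 in KO against 24.4 and 10.8 in WT (1.31 ± 0.25). Pfkfb1, Fbp1 (at a site nearest Fbp2), Pcx and Tat were higher by 1.14, 1.06, 0.78 and 0.72. The key gluconeogenic genes did not pass in this fit: Pck1 had 50.8 and 39.4 in KO against 42.0 and 27.7 in WT (-0.31 ± 0.25, adjusted p = 0.330) and G6pc 30.1 and 30.3 in KO against 31.9 and 23.5 in WT (-0.57 ± 0.24, adjusted p = 0.058). After quantile normalization Pck1 and G6pc were lower, by -1.10 and -1.17 (adjusted p = 0.001 and 0.002). In the centred fit Irs2, the insulin receptor substrate of the fasted liver, and the glycogen-targeting subunits Ppp1r3b and Ppp1r3c were lower by -0.77, -0.75 and -0.91. Both KO values lay below both WT values as deposited at 0 of these 3, against 30.9% of all 528 lower genes. In the circadian clock list 2 of 13 were higher (15.4%) and 3 lower (23.1%), against 23.5% and 10.4% of all genes. Hlf and Per1, whose site lies nearest Hes7, were higher and Bhlhe40, Arntl and Cry1 lower, at 0.82 and 0.99 and at -0.69, -0.72 and -0.94, with a median of 0.06 over the list. Both KO values lay below both WT values as deposited at 1 of the 3 lower clock genes. After quantile normalization 0 of the 13 were higher and 2 lower (15.4%), against 9.52% and 8.81% of all genes. Of 18 housekeeping genes 7 had a shared site, at a median of -0.01, and Sdha, at a site nearest Pdcd6, was lower (-1.05).

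**Figure D4:**
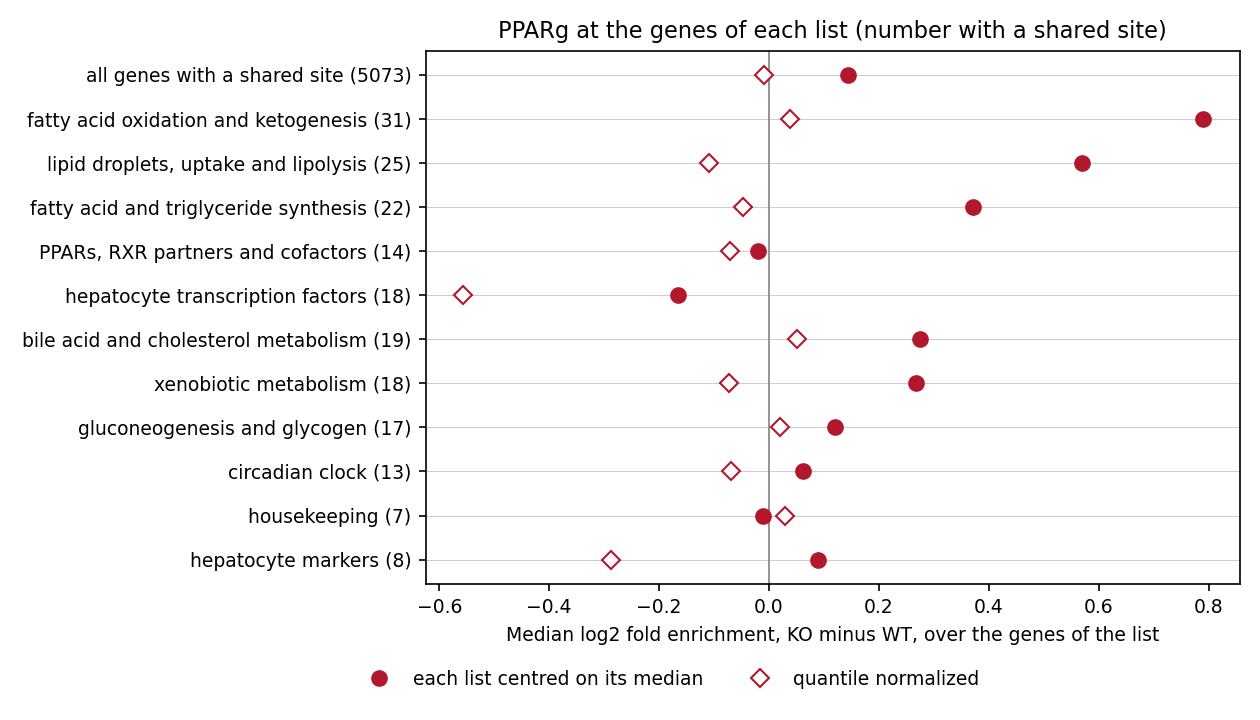
Median log2 difference in PPARg fold enrichment, KO minus WT, over the genes of each list with a shared site (their number in brackets), with each list of peaks centred on its median (filled circles) and after quantile normalization (open diamonds). Fatty acid oxidation stands at 0.79 and lipid droplet genes at 0.57 when centred, and at 0.04 and -0.11 when quantile normalized, against 0.14 and -0.01 over all 5073 genes.

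The binding sites lay at hepatocyte genes in all 4 libraries. Peaks within 10 kb were found at 8 of 8 hepatocyte marker genes in each of KO 7, KO 8, WT 2 and WT 4. Of the 8, 1 was higher beyond the shift (12.5%, against 23.5% of all genes with a shared site), at a median of 0.09 over the list. Alb, the albumin gene, had 36.1 and 43.3 in KO against 17.5 and 20.6 in WT at its strongest shared site. Of all 21627 genes, 9111 had a peak within 10 kb in KO 7 and 8838 in KO 8, against 6392 in WT 2 and 6039 in WT 4. Stellate cell markers had a peak at 1 of 6 genes in KO 7 and at 0 in the other lists, cholangiocyte markers at 2 and 0 of 5 in KO and 1 and 0 in WT, and Kupffer cell markers at 3 and 4 of 7 in KO and 2 in each WT list. Endothelial markers had peaks at 5 and 4 of 6 in KO and 3 in each WT list, with Stab2, a scavenger receptor of sinusoidal endothelium, higher beyond the shift (59.1 and 42.7 in KO against 18.6 and 14.7 in WT, 0.89 ± 0.24). Adipocyte markers had peaks at 4 and 3 of 5 genes in KO and 3 in each WT list, and Adipoq had 20.5 and 22.5 in KO against 7.44 and 8.82 in WT and Lep 16.1 and 16.4 in KO against 6.22 and 5.79 in WT, both higher beyond the shift (0.70 and 0.73, adjusted p = 0.044 and 0.047). After quantile normalization 0 of the 2 endothelial and 0 of the 3 adipocyte markers with a shared site were higher, against 9.52% of all genes. Lymphocyte markers had a peak at 1 of 6 genes in 3 of the lists and at 2 in KO 8. Neural stem cell markers, listed because of the growth text of WT 4, had a peak at 1 of 6 genes in every list, at a site nearest Smpdl3a. What other cell types add to these bulk values was not tested.

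Sites that were higher and sites that were lower differed in where they lay. Summits within 1 kb of either end of a gene made up 8.60% of the higher sites and 14.8% of the lower ones, against 11.4% of all shared sites. An H3K4me3 peak in both libraries of that mark overlapped 15.5% of the higher and 23.8% of the lower sites (19.4% of all). H3K27ac peaks from all 6 libraries of that mark covered 83.5% of the higher and 84.4% of the lower sites (85.6% of all), and a CTCF peak in both WT libraries lay at 6.32% and 6.84% (6.32% of all). Mean H3K27ac fold enrichment was higher in KO than in WT at 34.8% of the higher sites and at 16.5% of the lower ones, against 22.9% of all shared sites. Its median log2 difference, KO minus WT, was -0.04 at the higher, -0.11 at the lower and -0.09 at all shared sites. These shares describe the sites and were not tested. After quantile normalization 8.57% of the higher and 12.8% of the lower sites lay at gene ends, and H3K27ac was higher in KO at 39.2% and 15.0%. In that fit H3K27ac from all 6 libraries covered 75.6% of the higher and 89.4% of the lower sites, and a CTCF peak in both WT libraries lay at 5.24% and 10.3%, so that these shares depend on the scaling. The sites called in both KO lists only were weak, with median fold enrichments of 6.22 and 6.18, and 47.3% of them were covered by H3K27ac in all 6 libraries. Of the 281 called in both WT lists only, with medians of 6.33 and 5.29, 35.2% lay at a gene end and 42.0% had H3K4me3 in both libraries.

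**Figure D5:**
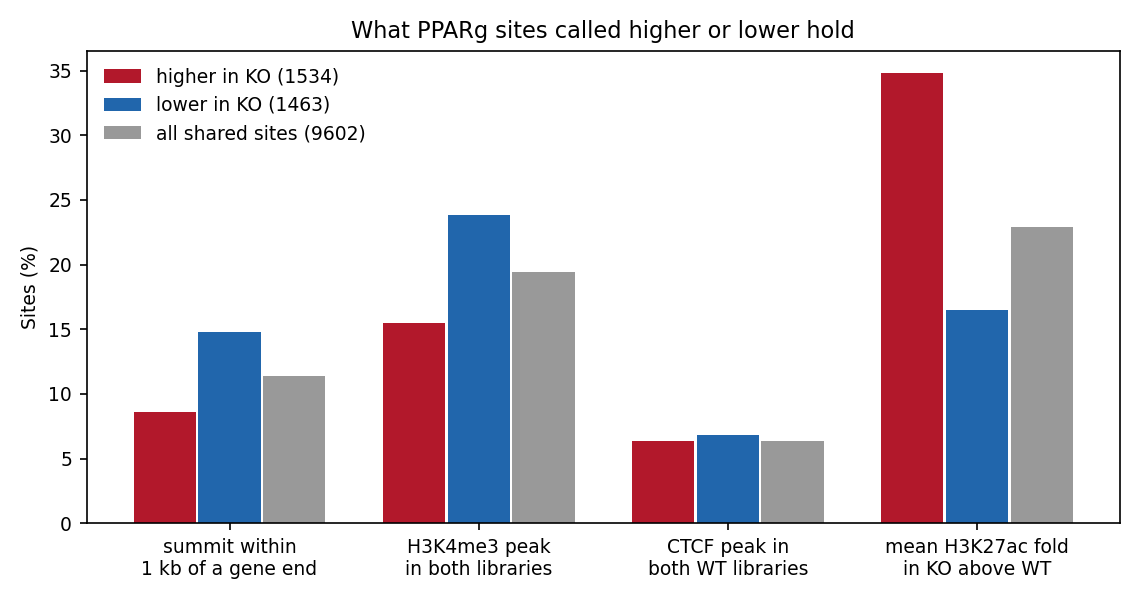
Percentage of PPARg sites that hold each feature, for the 1534 sites higher in KO beyond the shift, the 1463 lower in KO and all 9602 shared sites. Lower sites are at gene ends (14.8% against 8.60%) and under H3K4me3 (23.8% against 15.5%) more often than higher ones, and H3K27ac is more often higher in KO at the higher sites (34.8% against 16.5%).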

How the data were processed

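PPARg ChIP-seq of bulk mouse liver was compared between KO 7 and KO 8 and WT 2 and WT 4, grouped by the labels' genotype. BWA 0.7.12, Picard 1.77, MACS2 2.1.2, deepTools 3.1.3 and mm10 are named in the submitters' processing notes; the control used for peak calling is not given in the sources used here. The authors deposited 1 peak list per library, with fold enrichment over background as a linear ratio, and the deposited −log10 p and −log10 q of each peak. These values are the authors' own. The lists had different thresholds (the deposited WT 4 list starts at a −log10 q of 1.31), so a minimum of 3 was set for all. Lists of H3K27ac, H3K4me3 and CTCF peaks were used only for overlap and fold enrichment at PPARg sites.

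Peaks overlapping by 1 bp or more were merged. The fold of a site is that of its strongest peak and its width the bases covered by peaks, per list. log2 values were centred per list on the shared-site median and fitted with limma 3.58.1 (R 4.3.3, trend on, Benjamini-Hochberg adjustment over all sites or all genes). The fit was tested on simulated data with the same spread in every library and no shift that depends on strength. The real lists have both a different spread and such a shift, so the simulation does not test the calls made here. The 21627 protein-coding genes and the promoter sequences are from RefSeq (GRCm38.p6), and genes were assigned by position only. Named are the 10 largest rises and falls past the test, 3 sites by mean fold, 5 by rank in each direction, and from 18 gene lists the members past the test and the strongest. The promoters shown were chosen after their values were seen. The members and lists were chosen with earlier results of these data known. Alternatives were a stricter minimum, leaving out each library, single overlapping peaks, equal list lengths, other scalings, limma without trend, mean fold, rank by fold, a 5 kb window and a sum over sites. Some members of the lists are counted but not reported here by name.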

Additional observations from a re-analysis of the deposited data

How the results depend on the processing

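Each of the 11 counts, shifts and ratios was recomputed under the alternatives. The ratio of list lengths stayed at 1.73 to 1.85 when a library was left out, the shift in fold enrichment at 0.50 to 0.77 and the shift in width at 0.83 to 1.20, all on the same side of no difference. Leaving out a library gave 818 to 1400 sites higher and 693 to 1085 lower, 673 to 1133 genes higher and 263 to 387 lower, 0 to 612 sites wider and 4 to 555 narrower, and 0 to 0 sites past the test on rank. A minimum −log10 q of 10 left 719 sites higher, 680 lower, 19 wider, 9 narrower, 626 genes higher, and 66 sites higher and 79 lower in rank. No centring gave 4499 sites higher and 94 lower, and 3010 genes higher and 35 lower, which by construction keeps the list-wide shift. Quantile normalization gave 630 and 595 sites and 483 genes higher. Single overlapping peaks gave 995 sites higher, 835 lower, 176 narrower and 788 genes higher. Equal list lengths gave 826 sites lower, 25 wider, 36 narrower and 309 genes lower, and the mean fold of a site's peaks gave 332 genes lower.

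Of the genes named, some changed sign, as log2 differences. Under quantile normalization these were Acaa1a -0.045, Acsl1 -0.028, Angptl4 -0.34, Ehhadh -0.32, G0s2 -0.40, Por -0.076, Rora -0.11 and Slc27a2 -0.11. Without centring they were Acadl 0.032, Bhlhe40 0.014, Cebpb 0.085 and Cpt1a 0.12. With single overlapping peaks they were Abcb4 -0.34, Acaa1a -0.73, Acacb -0.042, Acsl5 -0.84, Cd36 -0.42, Ehhadh -0.25, Elovl6 -0.48, G0s2 -0.88, Ppp1r3b 0.45, Slc35a3 -0.032 and Tbl1xr1 0.29. The mean fold gave Ppp1r3b 0.47 and equal list lengths Slc35a3 -0.11. Signs also changed at Slc35a3 without KO 8, at Gstp1, Pde8a, Ppp1r3b and Scarb1 without WT 2, and at Cry1, Nadk, Pde8a and Scarb1 without WT 4. Over the libraries left out in turn, the differences ran from -1.21 to 0.25 at Cry1, -0.72 to 0.23 at Gstp1, -2.53 to 0.12 at Nadk, -1.95 to 1.19 at Pde8a, -0.73 to 0.26 at Ppp1r3b, -0.83 to 0.36 at Scarb1 and -0.060 to 2.99 at Slc35a3; Gstp1 had no value without KO 7. In 21 of these 34 values another site became the gene's strongest, and for the rest, other than those without centring, the cause was not tested. Leaving out sites with a −log10 q above 100 at a fold enrichment below 10, an alternative chosen after seeing the data, ended the call of 1 of the 66 higher genes named and of 0 of the 30 lower ones. No paired analysis was possible because the KO and WT libraries compared share no replicate number. Read depth is unknown, so no counting interval can be given.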

Other observations

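Of the 269 different genes in the lists, 7 (2.60%) had a peak within 10 kb in both KO lists and in neither WT list, against 1657 of all 21627 genes (7.66%). Abhd5, the activator of the main triglyceride lipase, had its best peak at a fold enrichment of 7.01 in KO 7 and 8.42 in KO 8. Hprt, of purine salvage, had 13.5 and 14.6 in KO, and Adgre1, which encodes the macrophage marker F4/80, had 9.87 and 7.30 in KO. The others were Slc27a4, Crebbp, Per3 and Rpl13a. Onecut1, which encodes the hepatocyte factor HNF6, was the 1 gene of the lists with a peak in both WT lists only, at 10.1 in WT 2 and 7.33 in WT 4, against 41 of all genes (0.190%). A missing peak means only that none passed the minimum −log10 q in that list.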
